A study of Mus musculus with 8 samples.

Results

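Hepatocyte identity is held by a small set of transcription factors that work in the same cells and bind many of the same enhancers. The group described here was defined by name as 9 such genes, Hnf4a, Foxa1, Foxa2, Foxa3, Cebpa, Cebpb, Nr5a2, Onecut1 and Prox1, and all 9 were found among the 55385 genes of the deposited table. Their RNA was measured by RNA-seq in whole livers of 8 male mice, 5 weeks old and fasted for 16 h, with 1 library per mouse. The 4 Usp39-HKO mice (A469, A470, A471 and A474, replicates 1 to 4) carried Usp39 alleles with loxP sites around exon 2 together with a Cre transgene driven by the Albumin promoter, which is active in hepatocytes and their fetal precursors, and the strains were kept on a C57BL/6J background. The 4 control littermates (A468, A472, A473 and A475, replicates 1 to 4) are called WT in the labels, which do not say whether they carried floxed alleles. Usp39 encodes a protein found in the tri-snRNP of U4, U5 and U6 RNA, the particle that joins the spliceosome before it is activated. The comparison between the genotypes asked which liver RNAs differed when Usp39 was removed from hepatocytes, and here it is followed for the factors that define these cells. Whole liver also holds cholangiocytes, stellate cells, endothelium and immune cells, and in such bulk RNA fewer cells of a type and less RNA per cell cannot be told apart.

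The members fall into families with different roles. HNF4A is a nuclear receptor that keeps apolipoprotein, clotting factor and bile acid genes on, and NR5A2 (LRH-1) is a nuclear receptor known for bile acid and cholesterol genes. FOXA1, FOXA2 and FOXA3 are forkhead proteins that open chromatin in foregut endoderm and bind gluconeogenic genes in the fasted adult liver. CEBPA and CEBPB are bZIP factors that form dimers with each other, the first linked to quiescent, metabolically active hepatocytes and the second to the acute phase and regeneration. ONECUT1 (HNF6) is a cut-homeodomain factor of hepatoblasts, hepatocytes and biliary cells, and PROX1 is a homeodomain factor of hepatocytes and of lymphatic endothelium that can act as a corepressor of HNF4A and NR5A2.

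The promoters of 4 members are shown because these genes stand for the different outcomes described further on, a lower level in Usp39-HKO mice (Cebpa and Prox1), a higher level (Onecut1) and no call (Hnf4a, whose counts sum the products of 2 promoters). Each run is the 250 bases before a RefSeq transcription start on GRCm38.p6, read 5′ to 3′ on the strand of the gene, and the 50 bases after the start were left out. Capitals mark matches on either strand to CAAAGTCCA (the HNF4-specific motif), CAAGGTCA (NR5A), TGTTTNC (FOXA), TTGCNNAA (C/EBP), ATNGAT (ONECUT) and GTTAAT (HNF1), where N is any base. None of the matches overlapped another in the promoters shown. The upstream Hnf4a start (P2) is known from fetal liver and pancreas and the downstream start (P1) from adult liver.
Hnf4a P2, chr2:163506607-163506856, plus strand: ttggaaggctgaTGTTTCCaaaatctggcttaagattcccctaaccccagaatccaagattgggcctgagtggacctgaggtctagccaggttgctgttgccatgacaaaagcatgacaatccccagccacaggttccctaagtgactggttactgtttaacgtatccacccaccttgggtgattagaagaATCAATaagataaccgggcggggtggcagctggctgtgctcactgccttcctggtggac
Hnf4a P1, chr2:163546905-163547154, plus strand: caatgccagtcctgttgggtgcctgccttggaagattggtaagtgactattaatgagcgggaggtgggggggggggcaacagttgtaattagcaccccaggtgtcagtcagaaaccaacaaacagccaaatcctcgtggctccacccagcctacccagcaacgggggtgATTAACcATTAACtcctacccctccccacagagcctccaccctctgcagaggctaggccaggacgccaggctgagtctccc
Cebpa, chr7:35119043-35119292, plus strand: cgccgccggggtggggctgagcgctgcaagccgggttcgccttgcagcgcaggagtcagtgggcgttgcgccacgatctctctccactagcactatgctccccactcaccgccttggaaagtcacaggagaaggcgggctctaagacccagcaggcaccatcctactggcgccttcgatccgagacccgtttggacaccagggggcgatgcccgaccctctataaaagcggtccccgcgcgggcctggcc
Prox1, downstream of its 2 starts, chr1:190169516-190169765, minus strand: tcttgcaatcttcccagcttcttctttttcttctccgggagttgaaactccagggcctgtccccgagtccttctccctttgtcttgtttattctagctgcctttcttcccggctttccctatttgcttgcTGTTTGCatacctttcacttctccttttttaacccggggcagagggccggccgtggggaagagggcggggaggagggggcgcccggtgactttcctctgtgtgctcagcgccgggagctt
Onecut1, chr9:74861671-74861920, plus strand: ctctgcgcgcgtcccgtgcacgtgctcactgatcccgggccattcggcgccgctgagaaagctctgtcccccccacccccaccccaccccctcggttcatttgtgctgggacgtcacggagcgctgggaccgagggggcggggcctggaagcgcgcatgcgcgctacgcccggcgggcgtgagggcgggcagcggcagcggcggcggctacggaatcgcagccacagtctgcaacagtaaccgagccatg

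The Hnf4a P1 run held a pair of HNF1 matches, the first beginning 81 bases and the second 74 bases before the start. In the P2 run a FOXA match began 238 bases and an ONECUT match 59 bases before the start. The Prox1 run held a FOXA match that began 120 bases before the start, and the Cebpa and Onecut1 runs held none of the 6 motifs. Over all 14 promoters listed for the 9 members, 3 held the FOXA motif, 3 the ONECUT motif, 3 the HNF1 site and 1 the C/EBP motif, and none held the HNF4 or NR5A motif. Of 32851 RefSeq promoters of the same length, 17.8% held the FOXA motif, 18.9% the ONECUT motif, 6.43% the HNF1 site, 9.56% the C/EBP motif, 1.33% the NR5A motif and 0.384% the HNF4 motif. The Cebpa (66.4% G or C) and Onecut1 (71.6%) promoters were richer in G and C than the median promoter (52.4%). A match is a run of letters and was not tested as a binding site.

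Counts on genes summed to between 8589636 and 10418450 per mouse in controls and between 9479922 and 10195028 in Usp39-HKO mice. Usp39 itself was at 9.35, 10.4, 8.76 and 9.78 FPKM (counts per kilobase of merged exons scaled to the total count of the mouse) in control mice A468, A472, A473 and A475, and at 8.37, 8.63, 8.70 and 8.07 FPKM in Usp39-HKO mice A469, A470, A471 and A474. The groups did not overlap, and the log2 fold change was −0.41 (SE 0.11, edgeR adjusted p = 0.0212, lost in 2 of 8 fits with 1 mouse left out), where the count covers all exons and not only the floxed exon. TMM factors, which scale the libraries to each other, lay between 0.911 and 0.94 for controls and between 1.01 and 1.19 for Usp39-HKO mice, so that a gene of equal FPKM in both groups has a negative fitted log2 fold change. Without TMM scaling the median log2 fold change of all genes was 0.24 instead of −0.0015, and 83.5% of the calls were higher in Usp39-HKO mice instead of 48.4%. Fold changes below are with TMM scaling unless stated. One control liver, A475, held RNA of pancreas acinar genes. In it 10 acinar markers summed to 606.5 FPKM, against 2.92 to 5.03 in the other 7 livers (Ptf1a was at 0 in all 8). Results without A475 are also given for some of the genes and lists.

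Of the 9 members, 5 differed between the genotypes at an adjusted p under 0.05 (edgeR quasi-likelihood test, Benjamini-Hochberg over 14340 genes). Cebpa, Prox1, Nr5a2 and Foxa3 were lower in Usp39-HKO livers, to 0.627, 0.643, 0.696 and 0.727 of the control level, and Onecut1 was higher, to 2.33 times the control level. Hnf4a, Foxa1, Foxa2 and Cebpb were not called, and each was called in 0 of 8 fits with 1 mouse left out, the fit without A475 among them. Among all genes tested, 22.5% were called, 10.9% higher and 11.6% lower. At the cutoff of the study, an unadjusted p under 0.05 and a log2 fold change beyond 0.5 in either direction, 4 members passed (Foxa3 did not) beside 21.7% of all genes. The median log2 fold change of the members was −0.23, beside −0.0015 for all genes tested.

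**Figure D1:**
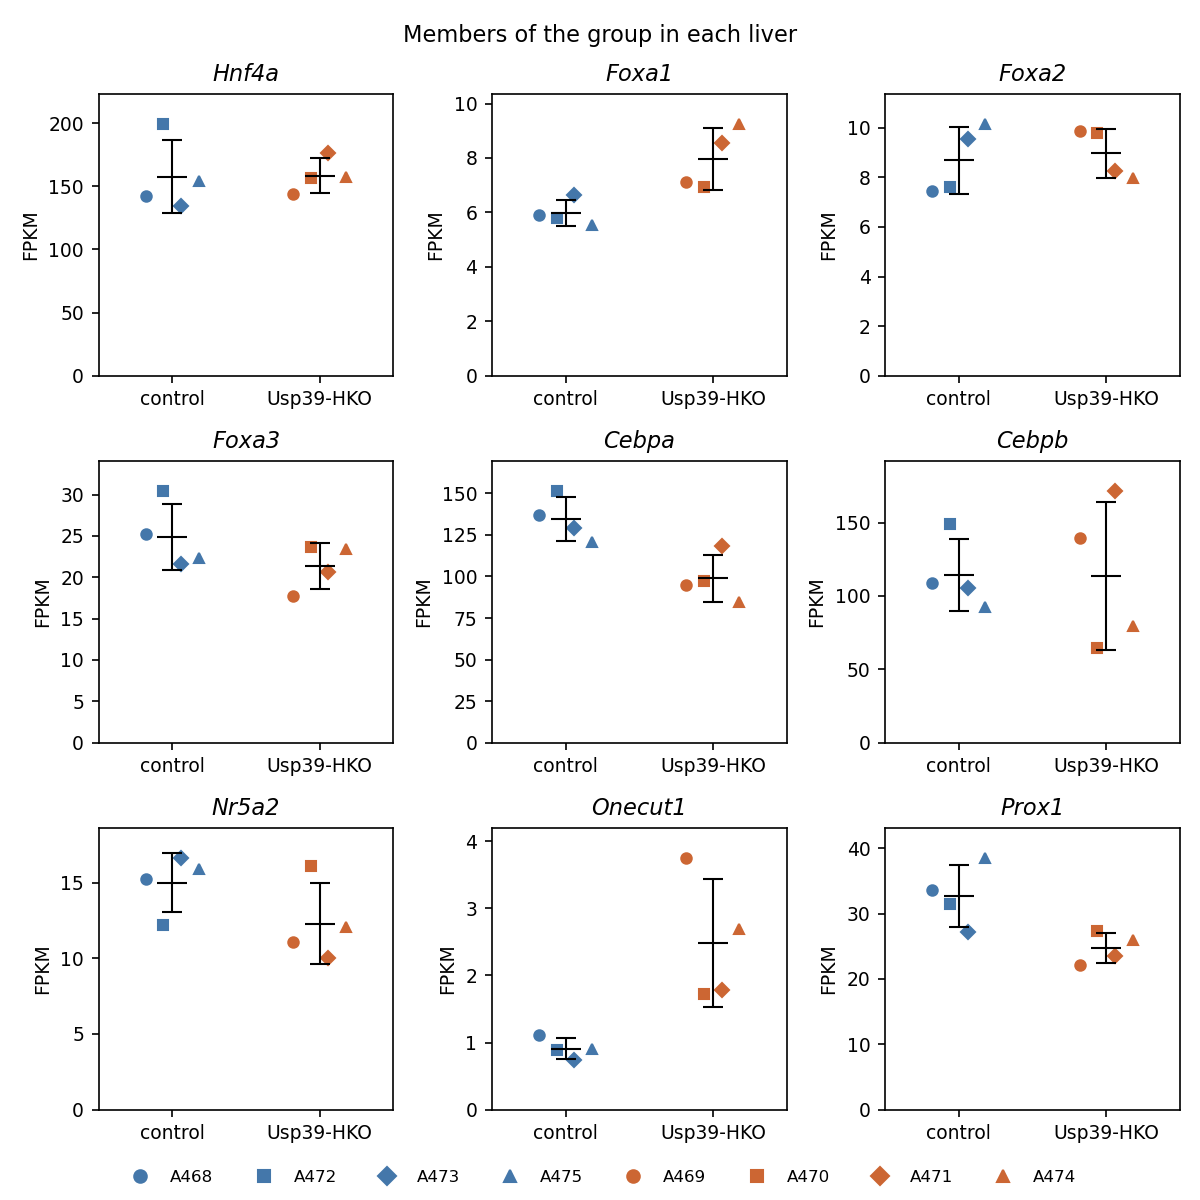
Deposited FPKM of the 9 members in each liver. Each panel is 1 gene with its own vertical axis starting at 0, each symbol is 1 mouse (blue, 4 controls; orange, 4 Usp39-HKO), and the black line and bar give the mean and SD. The Onecut1 and Foxa1 points of the Usp39-HKO mice all lie above the controls and those of Cebpa all lie below, while the other 6 panels overlap on this scale. The share of all genes without overlap on this scale is not given. Without TMM scaling, as here, the median log2 fold change of all genes was 0.24.

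In levels per length, the members spread widely in control livers, from Hnf4a at 157.6 ± 29.1 FPKM (SD, n = 4 here and in every mean that follows) through Cebpa at 134.6 ± 13.1, Cebpb at 114.0 ± 24.6, Prox1 at 32.7 ± 4.73, Foxa3 at 24.9 ± 4.02, Nr5a2 at 15.0 ± 1.94, Foxa2 at 8.69 ± 1.36 and Foxa1 at 5.97 ± 0.477 to Onecut1 at 0.91 ± 0.155. Among neighbours in this order, the ranges over control mice overlapped between Hnf4a and Cebpa, between Cebpa and Cebpb, and between Prox1 and Foxa3, although the order held within each of the 4 control livers. Hnf4a stood above 97.9% of the genes tested and Onecut1 above 16.2%. In Usp39-HKO livers the mean levels kept this order except that Cebpb (113.8 ± 50.4 FPKM) passed Cebpa (98.8 ± 14.3), a step seen in 2 of the 4 mice. Foxa2 and Foxa1, apart in controls, overlapped there.

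Hnf4a (chr2:163506808-163572910, plus strand, 13 merged exons) had 142.1, 199.5, 134.6 and 154.2 FPKM in control mice A468, A472, A473 and A475. In Usp39-HKO mice A469, A470, A471 and A474 it had 143.6, 156.5, 176.6 and 157.1 FPKM. The groups overlapped, and the highest value was that of control A472. The log2 fold change was −0.23 (SE 0.14, 95% interval −0.54 to 0.09, adjusted p = 0.292), and its sign turned to 0.01 without TMM scaling. On the opposite strand within the Hnf4a locus lies Hnf4aos, an antisense RNA that shares 0 exon bases with Hnf4a. Hnf4aos had 6.28, 3.60, 3.91 and 5.13 FPKM in the control mice and 2.80, 1.23, 0.88 and 2.32 FPKM in the Usp39-HKO mice in the same order. All Usp39-HKO values were below all control values, at a log2 fold change of −1.61 (SE 0.35, adjusted p = 0.00783) from 8 to 55 counts per mouse. The antisense RNA kept its call in every alternative that tested it. The strand setting of the counting is not given in the sources used here, so reads of unspliced Hnf4a within Hnf4aos exons cannot be told apart from it. The snRNA gene Gm25881, also within the locus, had 0 to 3 counts per mouse.

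Nr5a2 (chr1:136842571-136960448, minus strand, 10 merged exons) was at 15.3, 12.2, 16.6 and 15.9 FPKM in control mice A468, A472, A473 and A475 and at 11.0, 16.1, 10.0 and 12.035 FPKM in Usp39-HKO mice A469, A470, A471 and A474. Usp39-HKO mouse A470 lay among the controls and control A472 among the Usp39-HKO mice, so the groups overlapped. Its log2 fold change was −0.52 (SE 0.15, adjusted p = 0.028). It was called in 5 of 15 alternatives. Its log2 fold change was −0.28 without TMM scaling (adjusted p = 0.178), and the call was also lost with limma on log2(FPKM + 1) (adjusted p = 0.201) and log2(FPKM + 0.1) (adjusted p = 0.227) and with a mean FPKM of at least 5 (adjusted p = 0.0605). With 1 mouse left out the adjusted p lay between 0.00533 and 0.0879, with calls in 2 of those 8 fits (without A470 and without A472), and was 0.0745 without control A475.

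Of the FOXA family, Foxa3 was called with TMM scaling and Foxa1 without it. Foxa3 (chr7:19013284-19023538, minus strand), the most abundant of the family in adult liver, was at 25.2, 30.5, 21.6 and 22.3 FPKM in control mice A468, A472, A473 and A475. Its values in Usp39-HKO mice A469, A470, A471 and A474 were 17.8, 23.6, 20.6 and 23.5 FPKM. These overlap as deposited, and with TMM scaling all Usp39-HKO values (17.6 to 21.9) fell below all control values (23.8 to 33.2). Its log2 fold change was −0.46 (SE 0.13, adjusted p = 0.0233), and it was not called without TMM scaling (−0.22, adjusted p = 0.258). It was called in 7 of 15 alternatives, whose adjusted p reached 0.314. The call was also lost in both limma fits and with a mean FPKM of at least 5. With 1 mouse left out it was called in 4 of 8 fits, with adjusted p between 0.024 and 0.0583, and was not called without A468, A469, A471 or A474.

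Foxa1 (chr12:57540628-57546916, minus strand) went the other way in deposited units, at 5.89, 5.79, 6.65 and 5.54 FPKM in the controls and 7.11, 6.93, 8.57 and 9.26 FPKM in the Usp39-HKO mice. All Usp39-HKO mice were above all controls in FPKM (two-sided exact permutation test over 70 assignments, p = 0.0286, the smallest that 4 against 4 allows). With TMM scaling the groups overlapped and the log2 fold change was 0.18 (SE 0.12, 95% interval −0.08 to 0.44, adjusted p = 0.314), against 0.42 (adjusted p = 0.0345) without it. Foxa2 (chr2:148042877-148046969, minus strand) was at 7.44, 7.62, 9.53 and 10.2 FPKM in controls and at 9.86, 9.81, 8.27 and 7.97 FPKM in Usp39-HKO mice. The highest Foxa2 value was that of control A475, the liver with acinar RNA. The Foxa2 groups overlapped at a log2 fold change of −0.18 (SE 0.15, 95% interval −0.51 to 0.15, adjusted p = 0.426), which was 0.05 without TMM scaling.

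A ratio of 2 genes in 1 liver does not depend on how the libraries are scaled. Foxa1 made up 15.2 ± 1.84% of the summed FPKM of the 3 Foxa genes in controls and 20.8 ± 2.68% in knockout livers, Foxa2 22.2 ± 4.52% and 23.6 ± 3.72%, and Foxa3 62.7 ± 5.74% and 55.6 ± 3.31%. Their sum, which unlike a ratio depends on the scaling, was 39.6 ± 2.89 and 38.3 ± 2.79 FPKM as deposited. With TMM scaling Foxa3, the largest part, averaged 27.1 in controls and 19.7 in Usp39-HKO livers, Foxa2 9.46 and 8.36, and Foxa1 6.51 and 7.35. The sum with TMM scaling is not given. Between Foxa1 and Foxa3 the log2 ratio averaged −2.05 ± 0.286 among controls and −1.43 ± 0.232 among Usp39-HKO livers, a difference of 0.63 (two-sided exact permutation test, p = 0.0571, 0.214 after Benjamini-Hochberg adjustment over 5 ratios). The ratios overlapped between the groups only through Usp39-HKO mouse A470 (−1.77) and control mouse A473 (−1.70). None of the other 4 ratios passed the test, with Foxa2 to Foxa3 at a difference of 0.27 (exact p = 0.343), Foxa1 to Foxa2 at 0.36 (exact p = 0.229), Cebpa to Cebpb at −0.36 (exact p = 0.314) and Prox1 to Hnf4a at −0.42 (exact p = 0.0857). As 4 against 4 mice allow no exact p under 0.0286, 1 ratio alone could not pass after adjustment over the 5.

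**Figure D2:**
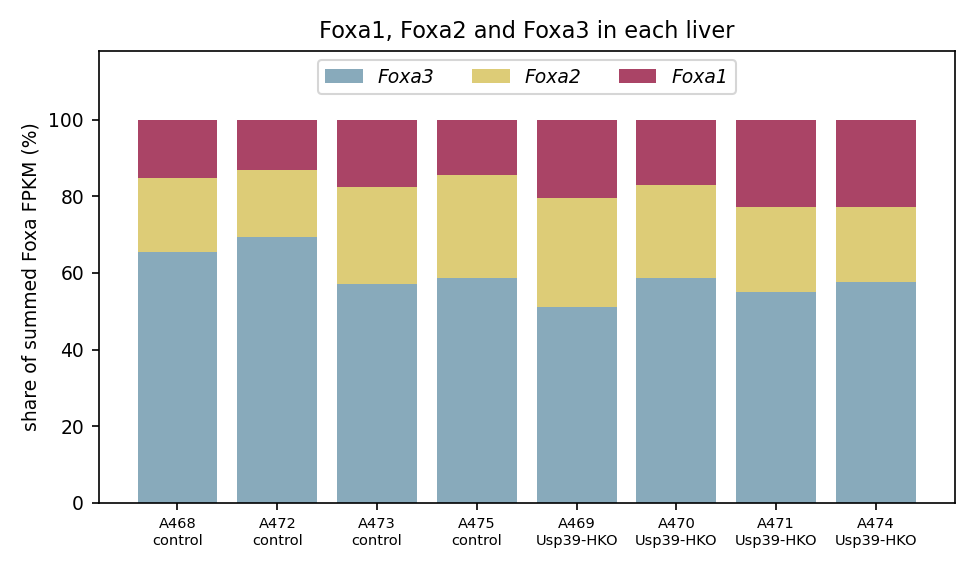
Shares of Foxa1, Foxa2 and Foxa3 in their summed FPKM (vertical axis, percent) in each of the 8 livers, 4 controls on the left and 4 Usp39-HKO on the right. The Foxa1 share ran from 13.2% to 17.6% over the controls and from 17.2% to 22.9% in Usp39-HKO livers.

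Cebpa (chr7:35119293-35121928, plus strand, a gene without introns in its merged exons) was called lower in every fit that was run. Control mice A468, A472, A473 and A475 had 136.8, 151.6, 129.3 and 120.7 FPKM, and Usp39-HKO mice A469, A470, A471 and A474 had 94.8, 97.3, 118.6 and 84.6 FPKM. The groups did not overlap on the deposited scale (exact permutation p = 0.0286), and the nearest values were Usp39-HKO A471 and control A475. The log2 fold change was −0.67 (SE 0.14, adjusted p = 0.00747) and stayed called in all 15 alternatives, with adjusted p between 0.000112 and 0.0418. Without control A475 it was −0.73 (adjusted p = 0.0157). The summed FPKM of 15 hepatocyte markers, 24651 to 26984 over the controls and 21820 to 29014 over the Usp39-HKO livers, overlapped between the genotypes as deposited. With TMM scaling these sums were 26218 to 29274 in controls and 28675, 20100, 24218 and 18740 in Usp39-HKO mice A469, A470, A471 and A474, so that 3 of the 4 Usp39-HKO livers fell below every control and A469 lay among the controls. The antisense RNA Gm45091, which shares 1.93% of the Cebpa exon bases, had 8 to 19 counts and was not called (log2 fold change −0.41, SE 0.34, adjusted p = 0.413).

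Cebpb (chr2:167688915-167690418, plus strand, a single exon) was at 108.8, 149.2, 105.7 and 92.3 FPKM in the controls and at 139.4, 64.3, 171.7 and 79.6 FPKM in the Usp39-HKO mice. The Usp39-HKO values fell on both sides of the controls, with a coefficient of variation of 44.3% against 21.5%, and the difference in spread was not tested. Its log2 fold change was −0.22 (SE 0.29, 95% interval −0.86 to 0.43, adjusted p = 0.641), an interval that still holds a fall as large as that of Cebpa. Tmem189 on the opposite strand covers 20.7% of the Cebpb exon bases and had a log2 fold change of 0.03 (SE 0.24, adjusted p = 0.945).

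Onecut1 (chr9:74861921-74891781, plus strand) was the only member called higher with TMM scaling, while Foxa1 was also called without it. It was at 1.11, 0.883, 0.736 and 0.91 FPKM (26 to 42 counts) in control mice A468, A472, A473 and A475, and at 3.75, 1.72, 1.78 and 2.69 FPKM (70 to 150 counts) in Usp39-HKO mice A469, A470, A471 and A474. Every Usp39-HKO mouse was above every control, and the highest was A469. The log2 fold change was 1.22 (SE 0.28, adjusted p = 0.0108), between 0.92 without A469 and 1.36 without A470, with the call kept in all 14 alternatives that tested the gene. An annotated lincRNA on the same strand, Gm20649, shares 2171 of the 4113 exon bases of Onecut1 (52.8%) and had 0 counts in all 8 mice. The sources used here do not say how reads over 2 genes were counted. If such reads were dropped, the Onecut1 level rests on the other exon bases and its FPKM understates it.

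Onecut1 is also expressed by biliary cells, and markers of these cells also differed between the genotypes. The 8 cholangiocyte markers summed to between 27.1 and 29.6 FPKM among controls, and to 65.1, 141.4, 151.6 and 290.1 FPKM in Usp39-HKO mice A469, A470, A471 and A474. Most of each sum was Spp1, at 23.2 to 25.0 FPKM in controls and 59.8, 127.8, 136.0 and 263.1 FPKM in these Usp39-HKO mice. Of the 6 tested, 5 were called higher, among them Spp1 (log2 fold change 2.32, SE 0.31, adjusted p = 0.000924), which other cells also make, Epcam (2.11, SE 0.42, adjusted p = 0.00582) and Cldn4 (3.28, SE 0.60, adjusted p = 0.00378). Krt19, a defining marker, was at 0.44 to 0.92 FPKM in controls and 1.05 to 4.72 in Usp39-HKO livers, and Cftr, which was under the filter, at 0.013 to 0.06 FPKM in controls and 0.119, 0.341, 0.162 and 0.503 FPKM in Usp39-HKO mice A469, A470, A471 and A474. Counts were low for Cldn4 (0 to 51 per mouse), Krt19 (7 to 83) and Epcam (16 to 195). Onecut1 was highest in A469, whose marker sum was the lowest of the Usp39-HKO livers. The part of these cells in the Onecut1 level was not tested.

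**Figure D3:**
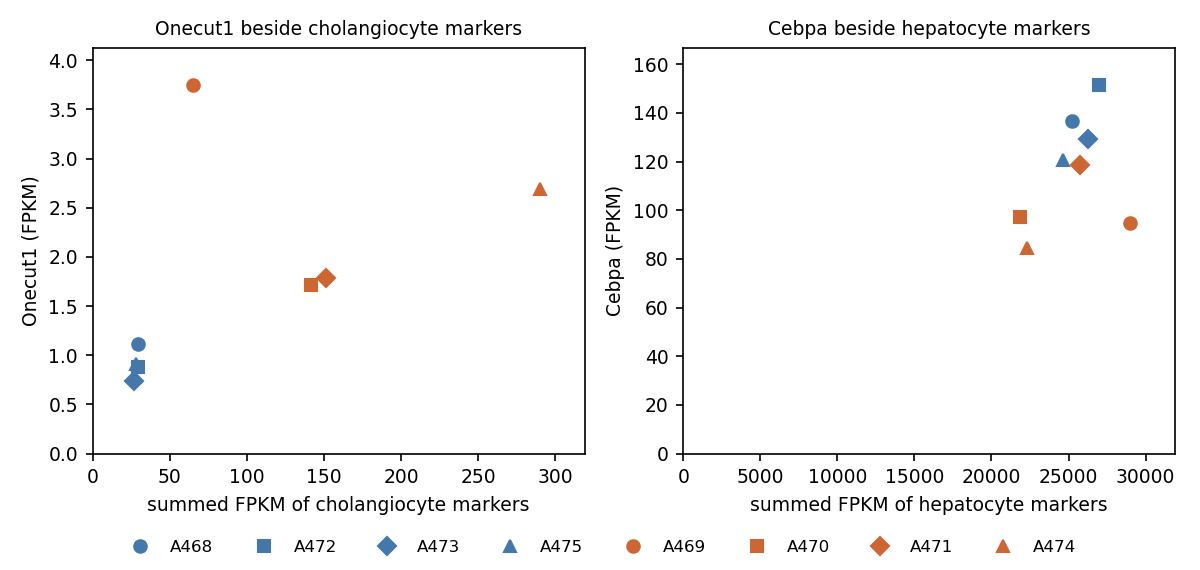
Left, Onecut1 (FPKM) against the summed FPKM of 8 cholangiocyte markers; right, Cebpa (FPKM) against the summed FPKM of 15 hepatocyte markers. Each symbol is 1 mouse (blue for control, orange for Usp39-HKO). Spp1, which other cells also make, carries most of the cholangiocyte marker sum in every mouse. On the left, A469 has the highest Onecut1 and the lowest marker sum of the Usp39-HKO mice; on the right, the deposited marker sums of the genotypes overlap while Cebpa does not, and with TMM scaling, which is not drawn, only the sum of A469 stays within the controls.

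Prox1 (chr1:190118035-190170714, minus strand, 6 merged exons) was at 33.6, 31.5, 27.2 and 38.6 FPKM in control mice A468, A472, A473 and A475 and at 22.1, 27.4, 23.5 and 25.9 FPKM in Usp39-HKO mice A469, A470, A471 and A474. As deposited, A470 lay just above control A473, and with TMM scaling all Usp39-HKO values (22.0 to 25.4) were below all control values (29.9 to 41.2). The log2 fold change was −0.64 (SE 0.12, adjusted p = 0.00414), and −0.56 (adjusted p = 0.0173) without control A475, which had the highest value. It was called in 14 of 15 alternatives. Prox1 also marks lymphatic endothelium, of whose markers Flt4 was at 9.05 and 9.26 FPKM on average in control and Usp39-HKO livers (log2 fold change −0.20, adjusted p = 0.218) and Lyve1, shared with sinusoidal endothelium, fell by 0.997 on the log2 scale (adjusted p = 0.016), while Pdpn and Mmrn1 were under the filter and Ccl21a was at 0 in all 8 livers. The antisense Prox1os, with 1.59% of Prox1 exon bases in common, went from 12.8 ± 2.12 to 9.13 ± 3.87 FPKM without a call (adjusted p = 0.1). A further antisense RNA, Gm28172, shares 0 exon bases with Prox1 and was not called either (log2 fold change −0.67, SE 0.30, adjusted p = 0.141, 7 to 12 counts).

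Counted over the members with TMM-scaled values, 3 lay below all controls in every Usp39-HKO mouse (Foxa3, Cebpa and Prox1), beside 12.9% of all genes tested, and 1 lay above them (Onecut1), beside 11.9%. The plot of fold changes gives all 9 members with both scalings.

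**Figure D4:**
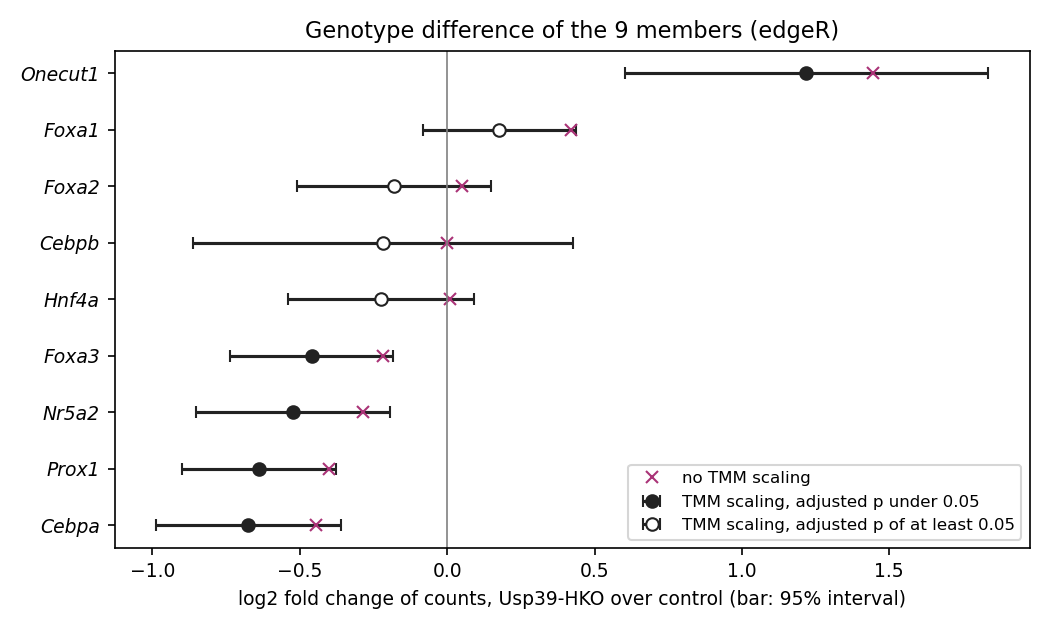
Log2 fold change of counts, Usp39-HKO over control (horizontal axis), for each member. Circles with bars are the edgeR estimate with TMM scaling and its 95% interval (filled, adjusted p under 0.05), and crosses are the estimate without TMM scaling. Crosses lie to the right of every circle, and Hnf4a and Foxa2 change sign between the scalings.

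Of 9 paralogs of the members, 6 passed the filter and 1 of these was called, beside 22.5% of all genes tested. The called paralog was Ddit3 (CHOP), a C/EBP family member induced by endoplasmic reticulum stress that lacks normal DNA binding. It was at 2.80, 5.06, 3.74 and 3.64 FPKM in the controls and 7.33, 8.99, 14.01 and 11.0 FPKM in the Usp39-HKO mice, a log2 fold change of 1.20 (SE 0.22, adjusted p = 0.00401) without overlap. Onecut2, at 8.82 and 9.13 FPKM on average, was more abundant per length than Onecut1 in both genotypes and was not called (log2 fold change −0.19, adjusted p = 0.264), nor were Cebpd (−0.10, adjusted p = 0.779) and Cebpg (0.01, adjusted p = 0.963). Hnf4g, Nr5a1 and Onecut3 did not reach the filter.

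Among 30 other liver transcription factors that were tested, 11 were called lower and 1 higher, with a median log2 fold change of −0.33. The smallest adjusted p was that of Nr1i3 (CAR, a nuclear receptor of drug metabolism), which went from 11.4 ± 1.83 to 5.35 ± 0.887 FPKM (log2 fold change −1.31, SE 0.16, adjusted p = 0.000758). Tbx3, a T-box factor of hepatoblasts and of hepatocytes near the central vein, went from 7.90 ± 1.45 to 4.22 ± 0.638 FPKM (−1.13, SE 0.16, adjusted p = 0.00121), and Ppara, the receptor behind the fasting response of fat oxidation, from 68.5 ± 7.83 to 45.1 ± 5.78 FPKM (−0.83, SE 0.13, adjusted p = 0.00209). The factor called higher was the clock output gene Dbp (1.99, SE 0.64, adjusted p = 0.0459), from 19 to 324 counts, where A469 had 11.1 FPKM and the other Usp39-HKO mice 1.08 to 2.85, and without A469 the log2 fold change was 0.84 (adjusted p = 0.0846). Its call was lost in 6 of the 8 fits with 1 mouse left out (adjusted p between 0.0539 and 0.112). Without TMM scaling 3 of the 30 were called lower and 3 higher, and without control A475, control A473 or Usp39-HKO A474 6 lower and 0 higher in each case.

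Genes that textbooks list as targets of the members were counted in 5 lists. Over their 47 different genes, Hnf4a and Foxa2 themselves among them, 16 were called lower and 1 higher, and the median log2 fold change was −0.42 beside −0.0015 for all genes tested. Without TMM scaling 9 were called lower and 3 higher, and the median was −0.18 beside 0.24 for all genes. With 1 mouse left out, between 9 (without control A473 or A475) and 22 (without Usp39-HKO A469) were called lower and at most 2 higher, 10 and 2 of them without Usp39-HKO A474. The lists share genes with each other and with the hepatocyte markers, of which 6 of 15 were called lower and 0 higher at a median of −0.48 (Hpd −0.77, Serpina1c −0.80 and Apob −0.60; 1 called lower without control A468 or A473, 2 without control A475 or Usp39-HKO A471, 3 without Usp39-HKO A474 and 8 without Usp39-HKO A469), so that a list cannot be assigned to its factor alone.

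HNF4A targets had 9 of 20 genes called lower and 0 higher (median −0.48). F7, coagulation factor VII, went from 54.5 ± 5.31 to 26.1 ± 7.5 FPKM (log2 fold change −1.28, SE 0.20, adjusted p = 0.00173), F9, coagulation factor IX, from 111.0 ± 17.7 to 73.9 ± 9.32 FPKM (−0.81, SE 0.16, adjusted p = 0.00449), and Cyp27a1, which starts the acidic route of bile acid synthesis, from 190.3 ± 11.6 to 91.3 ± 21.7 FPKM (−1.28, SE 0.18, adjusted p = 0.0012). Hnf4a itself was not called, as given above. With 1 mouse left out, 5 (without control A473 or A475) to 10 (without Usp39-HKO A469) of these targets were called lower, with 1 higher without control A472, and without TMM scaling 5 were lower and 1 higher.

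NR5A2 targets had 6 of 11 called lower and 0 higher (median −0.38). Cyp8b1, the sterol 12-alpha-hydroxylase that sets the cholic acid share, went from 633.6 ± 81.6 to 328.0 ± 115.4 FPKM (log2 fold change −1.18, SE 0.23, adjusted p = 0.00492). Abcg8, a sterol exporter of the canalicular membrane, went from 33.6 ± 3.07 to 19.4 ± 3.35 FPKM (−1.02, SE 0.14, adjusted p = 0.00119), and Slc10a1 (NTCP), which takes bile acids up from blood, from 395.7 ± 25.7 to 237.9 ± 34.7 FPKM (−0.96, SE 0.14, adjusted p = 0.00146). The list had 3 called lower without control A473, 4 lower and 1 higher without Usp39-HKO A474, and the same counts, 4 and 1, without TMM scaling.

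FOXA targets had 2 of 10 called lower and 1 higher (median −0.31), with 3 lower without Usp39-HKO A470, 1 lower without A471, A474 or any 1 control, and 0 higher without any 1 control. Pck1, the gluconeogenic enzyme PEPCK and a member also of the C/EBP and ONECUT1 lists, was at 1268, 1214, 1296 and 1079 FPKM in controls and 999, 924, 891 and 727 FPKM in Usp39-HKO mice, a log2 fold change of −0.68 (SE 0.17, adjusted p = 0.0144) without overlap. Mttp, which loads lipid onto apolipoprotein B, had −0.40 (SE 0.13, adjusted p = 0.0489) and was not called in 7 of the 8 fits with 1 mouse left out, those without A475 (0.0585) and without A474 (0.106) among them. The fetal plasma protein gene Afp had 3.68 (SE 1.04, adjusted p = 0.0263), from 0.896 ± 0.128 FPKM in controls, and its 4 Usp39-HKO values were 1.41, 3.0, 2.65 and, in A474, 50.9 FPKM. Without A474 its log2 fold change was 1.19 (adjusted p = 0.0147). The call was lost when any 1 control was left out (adjusted p between 0.0616 and 0.0743).

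C/EBP targets had 3 of 12 called lower and 0 higher (median −0.46), namely Crp, an acute phase protein gene (−1.17, SE 0.20, adjusted p = 0.00291), Cps1, the first enzyme of the urea cycle (−0.48, SE 0.16, adjusted p = 0.0443), and Pck1. The Cps1 call was lost in 6 of the 8 fits with 1 mouse left out (adjusted p between 0.0559 and 0.144). Without Usp39-HKO A469 the list had 8 of 12 called lower (median −0.66), and without A474 or any of controls A468, A473 and A475 it had 2. ONECUT1 targets had 2 of 8 called lower and 0 higher (median −0.26), Pck1 and Cyp7a1, the rate-limiting enzyme of bile acid synthesis, at 39.7 ± 16.4 and 14.5 ± 9.78 FPKM (−1.68, SE 0.42, adjusted p = 0.0164, and 0.0535 without control A473). This list had 1 called lower without control A473, 3 without Usp39-HKO A471 or control A472, and 1 higher without A474.

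**Figure D5:**
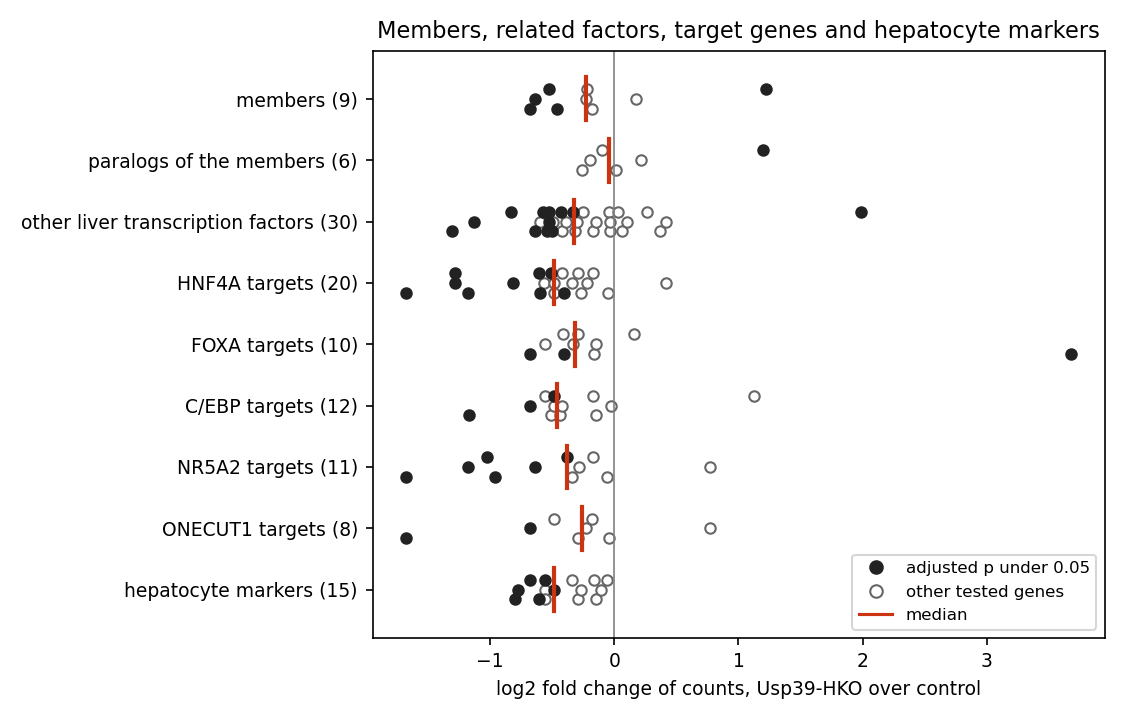
Log2 fold change of counts, Usp39-HKO over control (horizontal axis), for each tested gene of the member, paralog, factor, target and hepatocyte marker lists, with the number tested in brackets. Filled circles passed an adjusted p of 0.05, open circles did not, and the red line is the median. Most filled circles of the target and factor lists lie left of 0, and Afp and Dbp lie far to the right.

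Markers of other liver cells also differed between the groups, beside the changes of the members. Stellate cell and fibroblast markers had 7 of 10 called higher and 0 lower, with sums of 69.6 to 81.6 FPKM in controls and 114.8 to 249.4 in Usp39-HKO livers. Those with the smallest adjusted p were Dcn (log2 fold change 0.83), Lum (2.42) and Col1a2 (1.02), all genes of the extracellular matrix. Macrophage and neutrophil markers had 5 of 8 higher and 0 lower, with sums of 202.1 to 274.1 and 319.6 to 483.3, among them Ccr2 (0.98, from 22 to 87 counts), Lyz2 (0.76) and Cd68 (0.86). Of these, 2 were called higher without control A473 and 3 without control A468, control A475 or Usp39-HKO A474. Endothelial markers had 2 of 8 called lower (Stab2 and Lyve1) and 0 higher. Their deposited sums, 105.2 to 116.7 and 112.0 to 117.6, overlapped between the genotypes. After TMM scaling, the endothelial sums of all Usp39-HKO livers (98.9 to 112.0) lay below those of all controls (115.5 to 126.6). The Stab2 call was lost in 7 of the 8 fits with 1 mouse left out (adjusted p between 0.0722 and 0.12), no endothelial marker was called lower without control A473, and without TMM scaling 4 were called higher and 1 lower. Lymphocyte markers had 0 of 6 called, and summed to between 5.30 and 6.64 FPKM in controls and between 6.52 and 8.23 FPKM in Usp39-HKO livers as deposited. With TMM scaling the lymphocyte sums were 5.81 to 7.28 and 6.13 to 7.59. The largest cholangiocyte, stellate and macrophage sums were those of A474, which also had the lowest Cebpa and the second highest Onecut1. A474 had the highest Foxa1 as deposited (9.26 FPKM), while with TMM scaling A471 was higher (8.09 against 7.84). Without A474 the log2 fold change was −0.57 for Cebpa (adjusted p = 0.0154), 1.23 for Onecut1 (adjusted p = 0.0258) and −0.62 for Prox1 (adjusted p = 0.0124), and Foxa3 (adjusted p = 0.0547) and Nr5a2 (adjusted p = 0.0791) were no longer called. The part of these cells in the members' changes was not tested.

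The genes whose pattern over the 8 mice was most like that of each called member were found as the smallest mean absolute difference of centred log2(TMM-scaled CPM + 1). For Cebpa these were Gm40264 (0.067) and Gm30122 (0.074), for Prox1 Plcg1 (0.071) and Mtmr4 (0.076), for Foxa3 Herc2 (0.071), for Nr5a2 Osbpl9 (0.041) and Swt1 (0.042), and for Onecut1 Neurl1b (0.13) and Ctps (0.14).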

How the data were processed

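Liver RNA of 8 mice was sequenced with an NEBNext Ultra library kit, 1 library per mouse, and the labels gave the genotype. Per the labels and methods, the authors trimmed the reads with Trim Galore 0.6.1, aligned them to mm10 (GRCm38) with HISAT2 and counted them per gene with featureCounts, and the annotation release, strand setting and treatment of reads over several genes are not given in the sources used here. The authors deposited raw counts per gene and FPKM, and the FPKM were recovered from the counts, the gene lengths and the totals within a relative difference of 1.96e-07. Columns of the authors' own DESeq2 comparison (means, fold changes and p-values) were not used. The 314 repeated entries of a gene identifier were read once. No sample was left out or pooled, and 0 columns of other samples were present.

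Genes with at least 0.5 FPKM in at least 4 mice (14340) were tested with edgeR 4.0.16 (quasi-likelihood, TMM factors, all 8 mice, no covariates, two-sided, Benjamini-Hochberg adjusted p under 0.05). Single values and ratios were tested with exact permutation over 70 assignments of the mice. P-values measure the spread between these mice, and the precision of low genes is limited by their counts. Fits were tested on simulated data with as many genes raised as lowered, which cannot check the TMM scaling between the genotypes. Alternatives were DESeq2 1.42.0, its median-ratio scaling in edgeR, no scaling, limma 3.58.1 on log2(FPKM + 1) and log2(FPKM + 0.1), no filter, a mean FPKM of at least 5, and leaving out each mouse. Marker sums with TMM scaling were added after seeing the data.

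The members, gene lists and tests were chosen with earlier results of these data known, so no pattern is independent support. Named were all members with Usp39 and genes overlapping a member, from each list up to 3 called genes per direction with the smallest adjusted p, and for each called member the 2 genes of most similar pattern, of which 1 is not reported here. Other genes given with values (paralogs, and Krt19, Cftr, Muc1, Sox9, Krt7 and the lymphatic markers) were chosen after their values were seen. Coordinates and exons came from GENCODE vM21 on GRCm38 (99.6% of identifiers matched), and promoters from RefSeq on GRCm38.p6, where all 9 members matched.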

Additional observations from a re-analysis of the deposited data

Results flagged for a closer look

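In the log2 ratio of Foxa1 to Foxa3, the Usp39-HKO mouse A470 was at −1.77, while the other Usp39-HKO mice lay between −1.34 and −1.27. Its gap to the nearest of them was 0.854 of the range of the group, above the 95% critical value of Dixon's test for 4 samples. Such a gap arises by chance in about 1 of 20 groups, and 28 groups of 4 mice were examined here. This mouse had the highest Foxa3 of its group at 23.6 FPKM and the lowest Foxa1 at 6.93 FPKM.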

How the results depend on the processing

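Of the 9 members, 5 were called, and leaving out 1 mouse gave 3 to 5. Fits with limma on log2(FPKM + 0.1) and with a mean FPKM of at least 5 each gave 2, the latter without Onecut1, which lies under that filter. Over the 134 alternative fits of members, 107 kept direction and side of the threshold, 19 lost the call, 2 gained it (Foxa1 at 0.42 without TMM scaling and 0.36 with limma on log2(FPKM + 1)) and 6 turned sign. Without TMM scaling and with limma on log2(FPKM + 1) and log2(FPKM + 0.1), Hnf4a turned to 0.0097, 0.0204 and 0.0206 and Foxa2 to 0.0488, 0.0472 and 0.0526. Tmem189 ranged from −0.27 to 0.18 with 1 mouse left out and was −0.02 without control A468 and −0.27 without Usp39-HKO A469. The fits without TMM factors have, by construction, another median gene, at 0.24 without TMM scaling and at 0.17 and 0.22 with limma on log2(FPKM + 1) and log2(FPKM + 0.1).

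Over all genes tested, 3225 were called, 1595 with a mean FPKM of at least 5 (6672 tested) and 1931 to 3510 with 1 mouse left out. Of the genes in the lists around the members 52 were called, 30 to 62 with 1 mouse left out. Without TMM scaling 29 of the list genes were higher and 15 lower, against 20 and 32. The fewest calls came without control A473, 1931 over all genes and 30 in the lists, and without control A475 there were 2043 and 32. Without Usp39-HKO A474 2094 genes were called. The members counted 3 without each of control A468 and Usp39-HKO A469, A471 and A474. Prox1 lost its call with limma on log2(FPKM + 0.1) (adjusted p = 0.0646). None of the 5 ratios passed in any alternative. The smallest two-sided exact p with 1 mouse left out is 0.0286, and 1 ratio alone at that p has an adjusted p of 0.143. A single ratio could therefore not pass, and the lack of calls says little about the ratios. No paired analysis was possible because the labels give each mouse its own number, which no mouse of the other genotype shares. Onecut1 (26 to 150 counts) and Hnf4aos (8 to 55) had the lowest counts among the genes described at length, and their levels were the least precise.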
